A study of Mus musculus with 12 samples.

Results

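Histone H3 acetylated at lysine 9 (H3K9Ac) is a mark of active promoters and enhancers. BRWD1 carries bromodomains and WD40 repeats, reads acetylated and phosphorylated histone tails, and in small pre-B cells is tied to the opening of the immunoglobulin kappa light chain locus, Igk, for recombination. Strongly acetylated sites where no BRWD1 peak was listed are described here. They were chosen by measured values: an H3K9Ac replicate 1 peak on chromosomes 1 to 19 or X with a deposited score of at least 10 and a width under 1000 bp, a replicate 2 peak overlapping it by at least 1 bp, and no overlapping BRWD1 peak in either replicate. Of the 10117 H3K9Ac replicate 1 peaks on these chromosomes, 1236 (12.2%) met this rule. The 322 peaks that met the same limits but overlapped BRWD1 served as the comparison. Scores are the deposited significance of each peak, as −log10 of a probability. "Without BRWD1" means only that no BRWD1 peak was listed over the site.

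The 6 peak lists were made by ChIP-seq (sequencing of DNA bound to immunoprecipitated chromatin), with 2 biological replicates each for BRWD1, H3K9Ac and H3S10pK14Ac, histone H3 that carries phosphate on serine 10 and acetyl on lysine 14 of the same tail. The cells were small pre-B cells sorted from mouse bone marrow as Lin-B220+CD43-IgM-FSClow, and chromatin was sheared to 200 to 600 bp. The labels give these libraries the strain C57BL/6 and no genotype or age. The study used both wild-type and Brwd1-Mut mice, and its ATAC-seq samples are labelled by genotype, so a wild-type origin of the ChIP-seq libraries is not stated. The labels also do not say how many mice were pooled. Small pre-B cells have left the cell cycle after pairing a heavy chain with the surrogate light chain, and rearrange Igk. Coordinates are of build mm9, for which no annotation was used here. The cell type could therefore not be checked against its defining genes, and peaks are given by position, without gene names.

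The lists held 5813 and 9964 BRWD1 peaks (replicates 1 and 2), 10117 and 16453 H3K9Ac peaks, and 102 and 10637 H3S10pK14Ac peaks on these chromosomes. Read depth is unknown, so the depth behind a score cannot be given. H3S10pK14Ac replicate 1 stands apart by its small number of peaks, so the replicates of this mark are named separately. Some results, among them the bands of score and width, are given for replicate 2 only. With 2 lists for each antibody, no exact permutation test across replicates of 2 antibodies can go below p = 0.333. Tests below therefore take the peak as the unit, and the 95% Wilson intervals of shares cover counting error of peaks only.

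The rule narrowed the list in 4 steps. A score of at least 10 left 2510 peaks, of which 2133 were under 1000 bp wide. Of these, 1558 (73.0%) overlapped a replicate 2 peak, and 1236 of the 1558 (79.3%) had no BRWD1 peak. Neither limit fell at a break in the values. The lowest-scored peak without BRWD1 (chr2:58007690-58008218) scored 10, and 6 peaks that met every other limit scored 9.99. Scores of 10 to under 11 held 214 of the peaks without BRWD1, and 186 further peaks between 9 and 10 missed the score limit alone. The widest peaks without BRWD1 spanned 998 bp, the narrowest peak that missed the width limit alone spanned 1003 bp, with 41 peaks in the 50 bp below the limit and 35 in the 50 bp from it upwards.

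The peaks without BRWD1 lay at moderate scores and widths within the limits. Their replicate 1 scores ran from 10 to 61.2 with a median of 13.6, against 10.02 to 120.3 with a median of 17.5 for the peaks with BRWD1. Their widths ran from 223 to 998 bp with a median of 545.5 bp, against 478.5 bp. Both measures entered the rule, so these values describe the classes and are not tested. The share of peaks with BRWD1 was larger at higher H3K9Ac scores: 14.4% (12.2 to 16.8) of the 877 peaks scored 10 to under 15, 65 of the 325 scored 15 to under 20, 31.6% of the 263 scored 20 to under 30, and 51.6% (41.6 to 61.5) of the 93 scored 30 or more. Over the whole H3K9Ac replicate 1 list, 10.7% of peaks overlapped BRWD1, but the bands hold only peaks found in replicate 2. Of the 4367 peaks found there, of any score and width, 3732 had no BRWD1. Sites without BRWD1 were thus the majority at moderate scores, while only 45 of them scored 30 or more.

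The strongest peak without BRWD1, chr12:9037152-9038149, scored 61.2 in replicate 1 (rank 18 of the list) and 17.2 in replicate 2 (rank 672). The second, chr16:91406058-91406459, scored 60.5 and 13.8. These sites were picked for their replicate 1 scores, and the lists differ in length, so the ranks are not compared. The third, chr11:97860810-97861793, scored 51.8 and 30.3, and a replicate 2 peak of 1373 bp covered it fully. The next 7 in order were chr4:116883138-116883605 (50.5 and 13.8), chr6:115758735-115759132 (50.4 and 9.62), chr3:95776374-95776923 (45.9 and 9.19), chr9:65049415-65050147 (44.5 and 17.6), chr12:92827003-92827590 (44.4 and 16.6), chr11:51449460-51449999 (43.6 and 25.4) and chr11:4495011-4495733 (43.1 and 11.2). None of these 10 overlapped H3S10pK14Ac in either replicate. Its replicate 2 overlapped 3.80% of all sites without BRWD1 and 3.94% of the whole list, so 10 sites cannot show a lack. Their nearest BRWD1 peaks lay 4727 to 129388 bp away and scored 5.14 to 8.36, against a median of 5.70 for all sites without BRWD1. For 8 of the 10, another H3K9Ac peak lay within 2 kb, against 54.8% of all sites without BRWD1 and 38.7% of the whole list.

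Replicate 2 scores were not part of the rule beyond the presence of a peak. Among the peaks without BRWD1 the best replicate 2 score ran from 5.02 to 71.1 with a median of 9.74, and in the other class from 5.02 to 85.1 with a median of 13.2. A replicate 2 score of at least 10 was reached by 580 of the 1236 (46.9%, 44.2 to 49.7) and by 196 of the 322 with BRWD1 (60.9%, 55.4 to 66.0). In the whole list, 39.2% of the peaks found in replicate 2 reached it. The classes differed by -13.9 percentage points (95% Newcombe interval -19.8 to -7.84; two-sided Fisher's exact test, Benjamini-Hochberg adjusted over 4 tests, p = 8.54e-06). The difference rested on the BRWD1 replicate 2 list: without it, the peaks without BRWD1 were 1.90 points higher (-6.27 to 9.99; adjusted exact p = 0.675). Against the 129 peaks with BRWD1 in both replicates it was -1.14 points (-10.1 to 7.75; adjusted exact p = 0.853). It was also smaller among peaks under 500 bp (-4.42 points; adjusted exact p = 0.328) and among those scored 10 to under 15 (-7.42 points; adjusted exact p = 0.115).

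**Figure D1:**
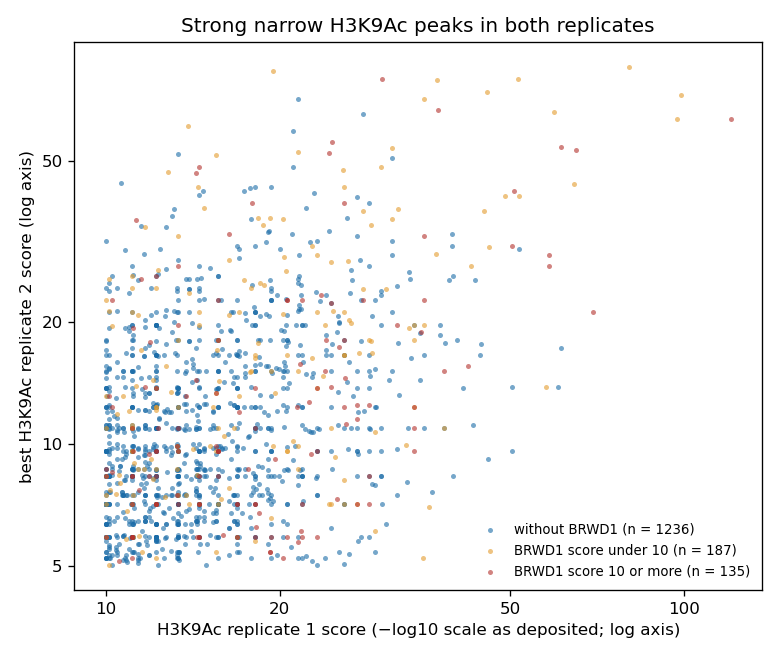
Each point is a strong narrow H3K9Ac peak, placed by its replicate 1 score (horizontal, log axis) and its best overlapping replicate 2 score (vertical, log axis); blue points have no BRWD1 peak, and orange and red points have a BRWD1 peak scored under 10 or 10 and above. The blue points end at a replicate 1 score of 61.2, while points with BRWD1 reach 120.3. Replicate 2 scores start at 5.02 in both classes.

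Scores of the replicates followed each other loosely among the peaks without BRWD1. Spearman's rho between them was 0.288 over these 1236 peaks and 0.404 over the 322 with BRWD1, given as descriptions because peaks of a library are not independent and the score limit cuts the range. The 5 with the best replicate 2 scores were chr8:4678518-4678974 (21.5 in replicate 1, 71.1 in replicate 2), chr2:23011654-23011967 (27.9 and 65.3), chr11:17111553-17112379 (21.04 and 59.1), chr3:87981666-87981995 (13.3 and 52.1) and chr15:82979791-82980177 (31.3 and 50.7). None of them was among the 10 strongest of replicate 1. The rule required an overlap with replicate 2, which bounds how far apart the replicates can lie, so their positions are given as a description. Replicate 2 peaks covered a median of 66.0% of a site without BRWD1, at least 50% of the width of 893 sites (72.2%), and all of 98 (7.93%). Over the 4367 H3K9Ac replicate 1 peaks found in replicate 2, which include these sites, the median was 63.6%. Of the 4367, 2926 (interval 65.6 to 68.4%) were covered over at least 50% of their width and 380 (8.70%) fully. The centre of the best replicate 2 peak lay a median of 89.5 bp from that of replicate 1, against 97.5 bp over the 4367. Over 126 sites (10.2%) replicate 2 listed more than 1 peak, against 10.99% of the 4367. The 1236 sites were covered by 1358 replicate 2 peaks, 8.25% of the replicate 2 list.

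H3S10pK14Ac replicate 2 was about as rare at the sites without BRWD1 as over the whole H3K9Ac replicate 1 list, and more frequent at the sites with BRWD1. Replicate 2 of this mark overlapped 47 of the 1236 (3.80%, 2.87 to 5.02) and 123 of the 322 with BRWD1 (38.2%, 33.1 to 43.6), a difference of -34.4 percentage points (-39.9 to -29.1; two-sided Fisher's exact test, adjusted p = 1.26e-54). The share over all H3K9Ac replicate 1 peaks, with and without BRWD1, was 3.94%. It was 7.44% (6.70 to 8.26) over the 4367 peaks found in replicate 2. Without BRWD1 it was 1.69% (1.45 to 1.98) over all 9035 such peaks and 3.32% (2.79 to 3.95) over the 3732 of them found in replicate 2, a class that holds the 1236 sites. Replicate 1 of the mark overlapped 1 of the 1236 (0.0809%, 0.0143 to 0.457) and 29 of the 322 (9.01%, 6.34 to 12.6), a difference of -8.93 points (-12.6 to -6.24; adjusted exact p = 2.41e-19), where the whole list gave 0.366%. Seen from the mark, the sites without BRWD1 took up 49 of its replicate 2 peaks (0.461% of that list) and 1 of its replicate 1 peaks (0.980%). The sites with BRWD1 took up 124 (1.17%) and 29 (28.4%). Both differences were larger without the BRWD1 replicate 2 list, at -59.7 points for H3S10pK14Ac replicate 2 and -18.3 points for replicate 1.

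The gap in H3S10pK14Ac replicate 2 was seen in every band of H3K9Ac score and of width. Among peaks scored 10 to under 15 the shares with H3S10pK14Ac replicate 2 were 3.46% without and 31.0% with BRWD1, and among those scored 30 or more they were 11.1% (4.84 to 23.5) and 45.8% (32.6 to 59.7). Among peaks under 400 bp they were 3.00% and 59.0%, and among those of 600 to under 800 bp 4.23% and 13.1%. The share with replicate 2 of the mark at sites without BRWD1 thus ranged from 1.54 to 11.1% over the score bands. Over the width bands it ranged from 3.00 to 4.23%. At scores of 10 to under 15, replicate 1 of the mark overlapped 0% without and 2.38% with BRWD1. From 15 upwards it overlapped 0.206 and 13.3%. Under 500 bp its shares were 0 and 12.5%, and from 500 bp 0.138 and 5.2%. The BRWD1 score divided the sites further. Of the 187 whose best BRWD1 score was under 10, 24 overlapped H3S10pK14Ac replicate 2 (12.8%, 8.78 to 18.4) and 0 overlapped replicate 1 (upper limit 1.60% from a count of 0). Of the 135 with a BRWD1 score of 10 or more, 99 did (73.3%, 65.3 to 80.1) and 29 did (21.5%). Against the 187 weaker sites alone, the difference for H3S10pK14Ac replicate 2 was -9.03 points (-14.7 to -4.80), and for replicate 1 it was 0.0809 points (-1.93 to 0.457). This division was made after the values were seen.

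**Figure D2:**
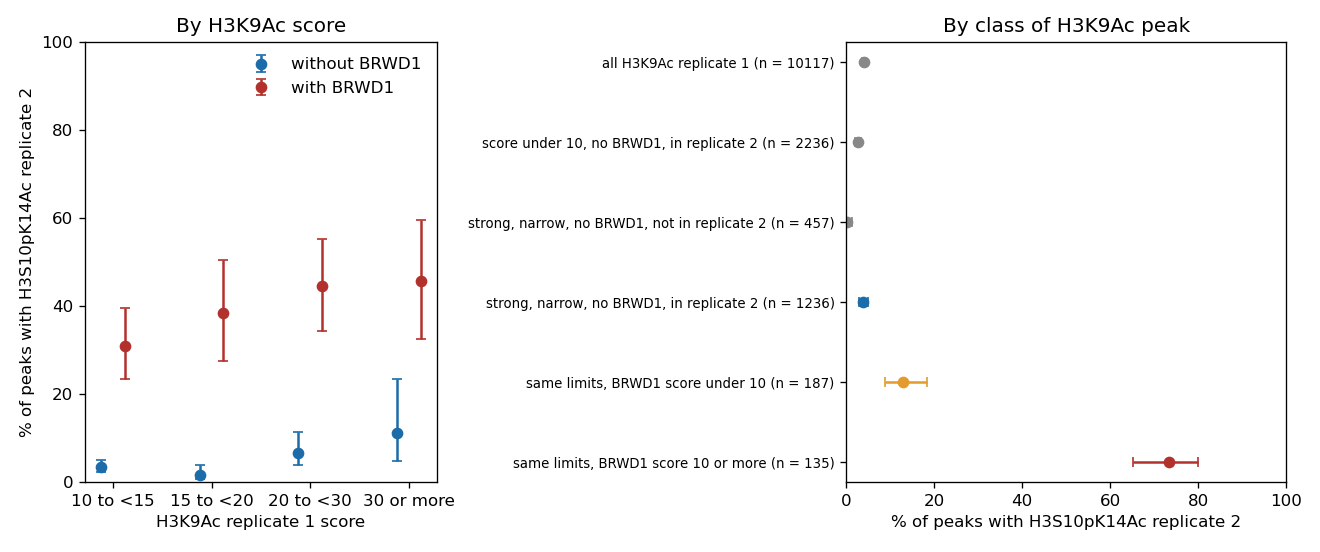
Left, the percentage of strong narrow H3K9Ac peaks that overlap an H3S10pK14Ac replicate 2 peak, by band of H3K9Ac replicate 1 score, for peaks without (blue) and with BRWD1 (red); right, the same percentage for 6 classes of H3K9Ac peak, with bars for 95% Wilson intervals. Peaks without BRWD1 stay between 1.54 and 11.1% in every score band, and in the right panel the classes with a BRWD1 score under 10 and of 10 or more stand at 12.8 and 73.3%, against 3.94% for the whole list.

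The 47 sites that carried H3S10pK14Ac replicate 2 without BRWD1 had weak peaks of that mark. Their H3S10pK14Ac scores ran from 5.08 to 10.4 with a median of 5.86, and 1 reached 10. At the 123 sites with BRWD1 they ran from 5.14 to 70.6 with a median of 10.4, and 66 reached 10. The single site that reached 10 was chr5:147493259-147493806, with H3K9Ac scores of 29.9 and 10.95. The strongest of the 47 in H3K9Ac was chr19:32786895-32787286, which scored 39.25 and 25.4 for H3K9Ac and 5.56 for H3S10pK14Ac. Next came chr7:133726823-133727339 (38.4 and 10.95), chr8:124808926-124809699 (34.9 and 14.4), chr15:85924471-85925360 (31.9 and 24.5) and chr5:106077862-106078541 (30.8 and 14.4). The other 5 of the first 10 scored 26.3 to 29.9 in replicate 1, among them chr2:23011654-23011967, which also has the second-best replicate 2 score of all sites without BRWD1. The site with an H3S10pK14Ac replicate 1 peak, chr6:38482788-38483665, scored 20.3 and 18.96 for H3K9Ac and 5.95 for the mark, and replicate 2 of the mark had no peak over it.

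Sites with H3S10pK14Ac replicate 2 had the higher median H3K9Ac replicate 2 score among the sites without BRWD1. Their median best replicate 2 score was 15.2 against 9.62 for the 1188 with no H3S10pK14Ac in either replicate, and 34 of 47 (72.3%, 58.2 to 83.1) against 545 of 1188 (45.9%, 43.1 to 48.7) reached 10. In replicate 1 the medians were 14.4 and 13.4. These values were not tested. The nearest BRWD1 peak lay at a median of 57728 bp from the former and 40126 bp from the latter, and within 10 kb of 6 of 47 (12.8%, 5.98 to 25.2) and 236 of 1188 (19.9%, 17.7 to 22.2).

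Many sites without BRWD1 had a second H3K9Ac peak close by. Another H3K9Ac replicate 1 peak lay within 10 kb of 781 of the 1236 (63.2%, 60.5 to 65.8) and of 147 of the 322 sites with BRWD1 (45.7%, 40.3 to 51.1), a difference of 17.5 percentage points (11.4 to 23.5; two-sided Fisher's exact test, adjusted p = 2.30e-08). Over all H3K9Ac replicate 1 peaks the share was 48.4%. It was 57.2% (55.75 to 58.7) over all peaks found in replicate 2 and 58.95% (57.4 to 60.5) over those of them without BRWD1. Strong peaks of 1 kb or more without BRWD1 had 64.6% (58.85 to 69.9), so the trait is not particular to these sites. Within 2 kb the shares were 54.8% for the sites without and 38.5% for those with BRWD1. Of the sites with a BRWD1 score of 10 or more, 22 of 135 (16.3%, 11.02 to 23.4) had such a neighbour, and of those with a weaker BRWD1 peak 125 of 187 did (66.8%, 59.8 to 73.2). Against the latter alone the difference was -3.66 points (-10.6 to 3.85). It was 41.6 points without the BRWD1 replicate 2 list. Among peaks of 500 bp or more it was 4.40 points (adjusted exact p = 0.31), and among those scored 10 to under 15 it was 9.39 points (adjusted exact p = 0.0677).

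**Figure D3:**
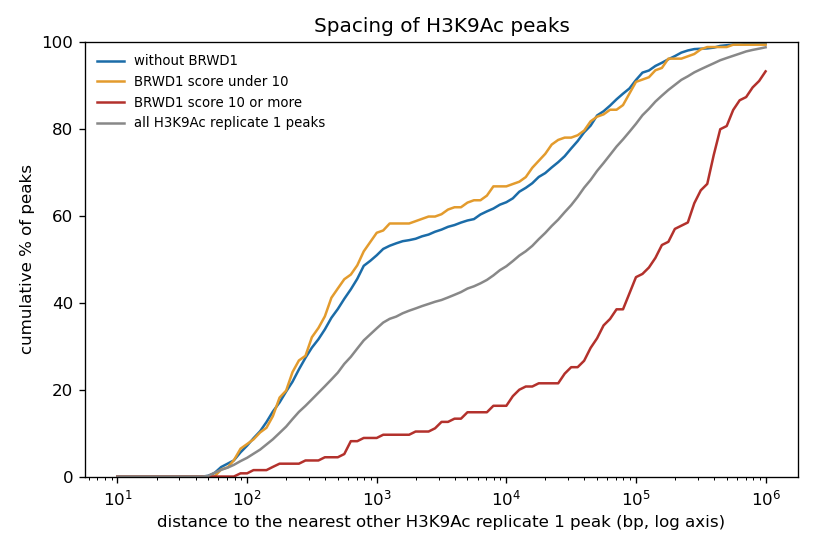
Cumulative percentage of peaks (vertical) by the distance to the nearest other H3K9Ac replicate 1 peak in bp (horizontal, log axis), for strong narrow peaks without BRWD1, with a BRWD1 score under 10, with a BRWD1 score of 10 or more, and for all H3K9Ac replicate 1 peaks. The first 2 curves run close together and stand at 63.2 and 66.8% at 10 kb, above the 48.4% of the whole list, and the curve for strong BRWD1 peaks stands at 16.3%.

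Most close neighbours scored under 10, though a smaller share of them did than of the whole H3K9Ac replicate 1 list. For the 677 sites without BRWD1 that had a neighbour within 2 kb, the gap between the peak edges had a median of 284 bp and quartiles of 145 and 569 bp. The neighbour scored under 10 in 422 cases, was itself a site of the same class in 137, was a strong narrow site with BRWD1 in 40, and was 1 kb or wider in 55. In the whole list the upper quartile of the scores was 9.91, so a larger share scored under 10. There 12.2% of peaks were sites of this class, a smaller share than among the neighbours. These shares were not tested. Replicate 2 also listed a peak over the neighbour in 414 cases (61.2%), against 60.8% for the neighbours of all H3K9Ac replicate 1 peaks found in replicate 2. Any BRWD1 peak lay over the neighbour in 68 cases (10.0%), close to the 10.7% of the whole list. The sites formed 77 pairs in which at least 1 had the other as its nearest neighbour. Their centres were a median of 843.5 bp apart (quartiles 715 and 1012.5 bp), and a single replicate 2 peak spanned both sites in 7 of the 77. Gene starts were not assigned here, so where these pairs lie relative to them is not described.

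The sites with a BRWD1 score of 10 or more were narrower than those without BRWD1. Their H3K9Ac width had a median of 380 bp with quartiles of 371.5 and 453 bp, against quartiles of 413 and 696 bp without BRWD1. Their replicate centres lay a median of 21 bp apart, against 89.5 bp. Their nearest other H3K9Ac peak lay at a median of 136966 bp, against 914.5 bp. The sites with weaker BRWD1 peaks had a median width of 618 bp, a centre distance of 98.5 bp and a nearest H3K9Ac peak at 754 bp. These are descriptions of classes formed after the values were seen. The 5 strongest sites with BRWD1 were of both kinds: chr4:124546311-124546892 (H3K9Ac 120.3 and 63.4, BRWD1 102.4 and 150.5) and chr10:62891688-62892463 (69.7 and 21.2, BRWD1 106.4 and 48.1) had strong BRWD1 peaks. At chr11:83084384-83085266 (98.8 and 72.9), chr11:115891924-115892791 (97.1 and 63.4) and chr11:68886581-68886982 (80.3 and 85.1) the best BRWD1 score in each replicate with a peak was 5.44 to 7.27, and neither H3S10pK14Ac list had a peak there.

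The nearest BRWD1 peak was usually more than 10 kb from a site without BRWD1, as it was for H3K9Ac replicate 1 peaks of the whole list. The distance had a median of 40865 bp, with quartiles of 14210.5 and 87407 bp, and was longer in replicate 1 (median 150355 bp) than in the longer list of replicate 2 (54326 bp). Over all H3K9Ac replicate 1 peaks the median to either replicate was 32465 bp, with overlaps counted as 0. For the 457 strong narrow peaks with neither a replicate 2 peak nor BRWD1 it was 35086 bp. A BRWD1 peak lay within 1 kb of 95 sites (7.69%, 6.33 to 9.31), within 10 kb of 243 (19.7%, 17.5 to 22.0), within 50 kb of 57.0% and within 100 kb of 78.7%. Of the 1236 sites, 71 (5.74%, 4.58 to 7.18) had a replicate 1 BRWD1 peak within 10 kb and 197 (15.9%) a replicate 2 one. With the BRWD1 replicate 2 list left out, 5.57% of the 1400 sites then without BRWD1 had one within 10 kb. The BRWD1 lists held 5813 and 9964 peaks. How far these distances depend on list length was not tested. The nearest BRWD1 peak had a median score of 5.70 and scored 10 or more for 38 of the 1236 sites. The same values over the whole BRWD1 lists were not computed, so these are not read as a trait of the sites.

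Some sites missed the overlap by a few bases. The 5 closest lay 5 to 29 bp from a BRWD1 peak: chr7:97590545-97591249 (5 bp), chr15:81494386-81495034 (14 bp), chr17:21081646-21082087 (23 bp), chr9:119232160-119232997 (23 bp) and chr9:41015680-41016134 (29 bp). All 5 of those BRWD1 peaks were weak, with scores of 5.16 to 5.70, and 15 sites in all lay under 100 bp from one. Among the 95 sites within 1 kb, the nearest BRWD1 peak scored 10 or more in 8. How often BRWD1 peaks of the whole lists reach 10 was not computed. At the other end, chr7:66485020-66485511 lay 504847 bp from any BRWD1 peak, followed by chr11:29447923-29448855 (479233 bp), chr4:82961242-82961940 (460559 bp), chr10:23507282-23508099 (438912 bp) and chr19:8093990-8094489 (422050 bp). Replicate 2 scores of these 5 ran from 5.24 to 9.99, all below 10.

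**Figure D4:**
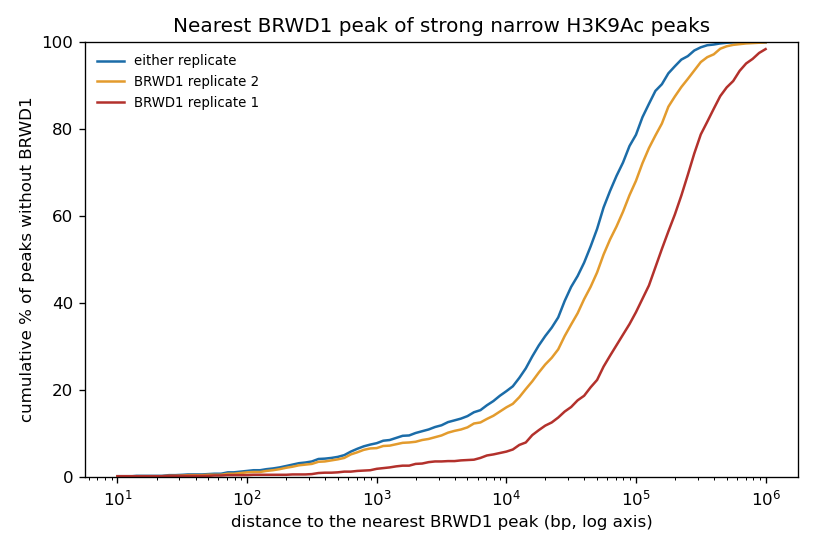
Cumulative percentage of the 1236 strong narrow H3K9Ac peaks without BRWD1 (vertical) by the distance to the nearest BRWD1 peak in bp (horizontal, log axis), for either replicate and for each replicate. The curve for either replicate passes 7.69% at 1 kb, 19.7% at 10 kb and 78.7% at 100 kb, and at 10 kb the curves for replicates 1 and 2 stand at 5.74 and 15.9%.

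Antigen receptor loci were taken as 6 windows of whole megabases, without an annotation. A window can hold flanking sequence, so a site in it is not placed within receptor genes. Of the 66 H3K9Ac replicate 1 peaks in the windows, 5 were sites of this class (7.58%, 3.28 to 16.5). Over the whole list the share was 12.2%. These windows held 0.652% of all H3K9Ac replicate 1 peaks. The Igk window, chromosome 6 from 67 to 71 Mb, held 2 of its 18 H3K9Ac replicate 1 peaks in this class. The first, chr6:70693317-70693984, scored 10.6 and 8.81 and lay 16465 bp from the highest-scored BRWD1 replicate 1 peak (score 214.6). The second, chr6:70742305-70743033, scored 20.4 and 8.60, and its nearest BRWD1 peak, 17844 bp away, scored 5.25. The lambda light chain (Igl) window held 1 among 11 H3K9Ac peaks, chr16:19982620-19983198 (12.97 and 9.84), whose nearest BRWD1 peak lay 2510 bp away with a score of 5.10. The window of the T cell receptor alpha and delta genes held 2 among 5, chr14:54872911-54873516 (16.5 and 15.2) and chr14:54970902-54971627 (13.9 and 17.96). The heavy chain (Igh) window, with 27 H3K9Ac replicate 1 peaks, held 0, as did the T cell receptor beta and gamma windows, with 3 and 2. None of the 5 sites carried H3S10pK14Ac, whose replicate 2 overlapped only 3.80% of all sites without BRWD1.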

How the data were processed

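The series has 12 samples, and the peaks of 6 ChIP-seq libraries were used. Its 2 input and 4 ATAC-seq samples are not analysed here. The submitters' processing notes name Trimmomatic 0.32, BWA 0.7.5, Picard, MACS2 and build mm9, without roles or settings. The authors deposited a list for each replicate library, with a score per peak on a −log10 scale. No label or header says whether p-values or q-values underlie it. Peaks on chromosomes 1 to 19 and X were used, and printed coordinates count from 1. Overlap meant at least 1 bp and was checked against bedtools. Distances are gaps between peak edges.

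Differences in shares were tested over peaks (Fisher's exact test, two-sided), Benjamini-Hochberg adjusted over 4 tests, with Newcombe intervals of differences (scipy 1.17.1, statsmodels 0.14.6, Python 3.11.15). Peaks are not replicates, and these tests do not measure spread between libraries. The members, limits, windows and tests were chosen with earlier results of these data known, among them the link of BRWD1 to H3S10pK14Ac, so that link is no independent support. Named sites were the extremes of score, replicate 2 score, width, H3S10pK14Ac and BRWD1 distance, those at the limits and those in receptor windows. The classes by BRWD1 score of 10 were added after seeing the data. Alternatives varied overlap, limits, strata, base list, contrast and libraries. No mm9 genome or annotation was used here, so the planned comparison of gene starts and of base composition was not run.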

Additional observations from a re-analysis of the deposited data

How the results depend on the processing

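The lower share of H3S10pK14Ac replicate 2 at sites without BRWD1 kept its direction and its side of the threshold in all 19 alternatives (-73.7 to -9.03 percentage points), and that of replicate 1 in 12 of 13 (-22.4 to -2.38). The exception was the comparison with BRWD1 scores under 10 (0.0809 points). The share with an H3K9Ac neighbour within 10 kb stayed higher and past the threshold in 18 of 21 (5.99 to 47.7). It was 4.40 points at widths of 500 bp or more, 9.39 at scores of 10 to under 15, and -3.66 against BRWD1 scores under 10. The lower share of replicate 2 scores of 10 or more held in 12 of 17, among them the alternative without the BRWD1 replicate 1 list (-15.2 points). In the others it was -4.42 points under 500 bp, both as a limit and as a stratum, and -7.42 at scores of 10 to under 15. Against BRWD1 in both replicates it was -1.14, and without the BRWD1 replicate 2 list 1.90. For these the cause was not tested, and the strata hold fewer peaks. The counted alternatives were not all separate. A score limit of 15 and the stratum from 15 upwards held the same peaks, as did the width limit under 500 bp and its stratum. Using all sequence names left the counts of both classes unchanged. The number of sites without BRWD1 ranged from 485 at a score limit of 15 to 1698 at a score limit of 8. It was 509 at widths under 500 bp, 707 with the other lists limited to scores of 10 or more, 1304 with H3K9Ac replicate 2 as the base list, 1496 with no width limit and 1693 without H3K9Ac replicate 2. The unknown depth limits every statement that a site lacked a peak. No paired analysis was possible because the lists hold 1 set of peaks per library and the tests take the peak, not the replicate, as unit. The alternatives for the comparison of gene starts were not run, since that comparison was not made.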

Other observations

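The sites without BRWD1 were spread over all 20 chromosomes used. They made up 8.17% of the H3K9Ac replicate 1 peaks on chromosome 14 (30 of 367) and 14.8% on chromosome 11 (122 of 826), with 12.2% over the whole list. Chromosome X held 16 of them among 179 H3K9Ac peaks (8.94%, 5.58 to 14.03). A 1 Mb window with any such site most often held only 1 (407 windows), and the fullest, chromosome 7 from 134 to 135 Mb, held 10 among 28 H3K9Ac peaks, with no strong narrow peak with BRWD1. The next were chromosome 11 from 69 to 70 Mb with 9 and, with 8 each, chromosome 10 from 127 to 128 Mb, chromosome 19 from 5 to 6 Mb and chromosome 7 from 52 to 53 Mb. These counts were not tested.

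A further 457 strong narrow H3K9Ac replicate 1 peaks had neither a replicate 2 peak nor BRWD1. Their scores had a median of 11.7 and ran to 47.4, and their median width was 471 bp. H3S10pK14Ac replicate 2 overlapped 1 of the 457 (0.219%, 0.0386 to 1.23) and another H3K9Ac replicate 1 peak lay within 10 kb of 54.05%, against 3.80% and 63.2% for the sites found in both H3K9Ac replicates. Of the 2236 peaks without BRWD1 that scored under 10 and were found in replicate 2, 57 (2.55%, 1.97 to 3.29) overlapped H3S10pK14Ac replicate 2.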
